A study of Mus musculus with 12 samples.

Results

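The 6 E3 ubiquitin ligase genes of striated muscle described here, in adult mouse heart, are Trim63, Trim54, Trim55, Fbxo32, Fbxo40 and Stub1. They were chosen by name, as the 6 rows of the deposited count table, which has 23457, that carry these symbols. All 6 passed the filter on low counts that left 13050 genes. Polyadenylated RNA from 12 hearts (the ventricular apex per the protocol, whole heart per the tissue label) was sequenced 9 to 10 weeks after tamoxifen, 6 from floxed mice with no Cre (noninduced) and 6 from floxed, induced mice with MERCreMer (Parkin KO), all adult and on C57BL/6J. Both groups carried the floxed gene, and only the Parkin KO group carried MERCreMer, a tamoxifen-activated Cre recombinase, so Parkin loss and the recombinase cannot be told apart. Which promoter drives it, the sources used here do not give. The comparison asked whether loss of Parkin, itself an E3 ligase that marks damaged mitochondria, goes with a change in messenger RNA.

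An E3 ligase brings a substrate protein to the ubiquitin-conjugating enzyme, and a chain of ubiquitin then sends the substrate to the proteasome. In muscle a small set of ligases governs turnover of the contractile apparatus. Trim63 (MuRF1), Trim54 (MuRF3) and Trim55 (MuRF2) are related RING-finger ligases of the sarcomere and the microtubules, and MuRF1 binds titin and degrades thick-filament proteins. Fbxo32 (atrogin-1) and Fbxo40 are F-box proteins, the substrate-recognition subunits of cullin-RING complexes. Atrogin-1 is known for acting on calcineurin and Fbxo40 for acting on the insulin receptor substrate Irs1. Stub1 (CHIP) is a U-box ligase that binds heat shock chaperones and passes on clients that fail to fold. Trim63 and Fbxo32 are the classic genes of muscle wasting, switched on by FoxO factors when insulin signalling falls and by glucocorticoids.

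A FoxO motif and a part of the glucocorticoid receptor motif were looked for in the promoters. Windows are given for Trim63, Trim54 and Stub1, which varied together across hearts, as did Fbxo32 and Fbxo40. The windows run from 250 bases before to 50 bases after the start site (RefSeq, GRCm38.p6). Capitals mark, on either strand, the FoxO motif TGTTTAC and TGTTCT, which is only a part of the receptor motif. TGTTCT is called the partial receptor motif here, and the whole receptor motif was not looked for.
Trim63 (chr4:134314870-134315169, plus strand): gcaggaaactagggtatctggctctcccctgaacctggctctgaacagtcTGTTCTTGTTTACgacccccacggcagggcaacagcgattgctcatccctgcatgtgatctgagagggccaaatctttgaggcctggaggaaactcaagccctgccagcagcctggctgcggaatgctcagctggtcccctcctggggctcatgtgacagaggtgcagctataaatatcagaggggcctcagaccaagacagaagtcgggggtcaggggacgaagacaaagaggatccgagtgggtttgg
Trim54 (chr5:31116362-31116661, plus strand): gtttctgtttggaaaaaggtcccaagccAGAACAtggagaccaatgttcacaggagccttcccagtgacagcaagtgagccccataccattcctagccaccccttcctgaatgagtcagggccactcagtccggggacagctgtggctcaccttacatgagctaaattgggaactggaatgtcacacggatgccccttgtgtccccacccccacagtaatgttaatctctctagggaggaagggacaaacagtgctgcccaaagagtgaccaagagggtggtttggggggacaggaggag
Stub1 (chr17:25832870-25833169, minus strand): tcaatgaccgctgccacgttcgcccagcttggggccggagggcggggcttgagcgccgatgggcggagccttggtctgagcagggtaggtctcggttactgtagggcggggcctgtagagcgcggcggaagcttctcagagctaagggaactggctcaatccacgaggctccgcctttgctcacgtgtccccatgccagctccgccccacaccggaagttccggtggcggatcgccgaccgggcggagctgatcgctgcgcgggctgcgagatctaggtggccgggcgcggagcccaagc
In the Trim63 window TGTTCT covers bases 51 to 56 and TGTTTAC bases 57 to 63, so that the first ends where the second begins, 194 bases before the start site. Among 32851 windows of this length in the RefSeq table, 3.65% held the FoxO motif and 19.0% the partial receptor motif. The joined run TGTTCTTGTTTAC, looked for after the Trim63 window had been read, was in 1 window, that of Trim63. The Trim54 window held the partial receptor motif alone, on the other strand (AGAACA), 222 bases before the start. Neither motif was in the Stub1 window, which is 68.3% G and C. Of the 2 Fbxo40 windows in the table, that at chr16:36979087-36979386 held the partial receptor motif and the other held neither motif. The table matched 4 of the 6 members, and Fbxo32 and Trim55 are not among them. A match describes these letters and shows no binding.

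The members lie on 6 chromosomes of GRCm38, each as a protein-coding gene in GENCODE. Trim63 is on chromosome 4 from 134315120 to 134329629, Trim54 on chromosome 5 from 31116712 to 31137630 and Trim55 on chromosome 3 from 19644474 to 19692421. Fbxo32 is on chromosome 15 from 58175879 to 58214932, Fbxo40 on chromosome 16 from 36963460 to 36990467 and Stub1 on chromosome 17 from 25830505 to 25833404. The libraries do not keep strand, and 42.3% of the exon bases of Stub1 are also exon of Jmjd8 on the opposite strand, so reads there cannot be told apart. Trim54 shares 26.6% of its exon bases with the antisense gene Gm15469, and Fbxo32 shares 2.67% with Gm15943. Trim63, Trim55 and Fbxo40 share none.

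Library totals ran from 11610507 to 16884516 counts, so that 1 read was worth 0.0547 to 0.0947 CPM (counts scaled to library size by TMM). Park2, the gene deleted per the labels, had 24 to 45 reads in Parkin KO and 24 to 45 in noninduced libraries (median 33.0 and 32.5), a log2 fold change of -0.05 ± 0.21 (SE, edgeR, adjusted p = 0.93). Which part of the gene was deleted the labels do not say, and counts over the whole gene do not check its loss. Esr1, on which reads of MERCreMer can fall, was at 1553 to 4683 CPM in Parkin KO against 24.0 to 962 CPM in noninduced hearts. Libraries labelled noninduced 1 and 3 held 558 and 962 CPM of it, against their label, and every direction below rests on these labels. By Y-linked reads and Xist, 3 Parkin KO and 0 noninduced libraries were male, and the library labelled noninduced 3 carried both signals. The 14 cardiomyocyte markers summed to 115255 to 134832 CPM in Parkin KO against 92919 to 127058 CPM in noninduced hearts. By their log2 fold changes 12 of 14 were higher in Parkin KO, against 52% of all genes. All 10 atrial markers had lower values in Parkin KO (8 with an unadjusted edgeR p under 0.05, against 5.54% of all genes in this direction). Their median log2 fold change was -2.38, and 0 passed in edgeR. They summed to 639 to 2215 CPM in Parkin KO against 611 to 7495 CPM in noninduced hearts, and Myl7, the atrial light chain, reached 760 and 1107 CPM in noninduced 2 and 5. Lower values in Parkin KO were also held by 8 of 12 fibroblast, 8 of 11 smooth muscle and pericyte, 9 of 12 macrophage and 5 of 10 endothelial markers. Without noninduced 2 and 5, the libraries of highest Myl7, the log2 fold changes were 0.16 for Trim63, 0.28 for Trim54 and 0.27 for Stub1, against 0.23, 0.32 and 0.33 with them, and -0.064 for Fbxo32, 0.038 for Trim55 and -0.17 for Fbxo40 (edgeR, adjusted p from 0.655 to 0.916). The part of the other cell types in the members' differences was not tested. In bulk tissue, fewer cells of a type and less RNA per cell cannot be told apart.

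Levels of different genes can be set side by side only per length, here as the deposited FPKM, which divides by transcript length and library size. Trim54 had the highest level, with a median of 234.3 FPKM over 12 libraries (range 142.0 to 283.0 FPKM). Trim63 followed at 144.0 FPKM (108.7 to 178), below Trim54 in all 12 libraries. Trim54 and Trim63 stood above the other 4 members in every library. Stub1 at 70.4 FPKM (50.9 to 88.0) and Fbxo40 at 69.0 FPKM (59.9 to 99.8) did not differ beyond their spread, with Stub1 the higher in 6 of 12 libraries. Trim55 at 35.8 FPKM (26.9 to 41.3) and Fbxo32 at 31.6 FPKM (28.3 to 43.8) were also interleaved, Trim55 being higher in 7 of 12. The order of the lower 4 changed when counts were divided by the exon length in GENCODE. On that scale the medians were 223.0 CPM per kb for Trim54, 85.2 for Trim63, 33.4 for Fbxo32, 30.5 for Fbxo40, 21.6 for Trim55 and 13.5 for Stub1. FPKM was 5.05 times the CPM per kb for Stub1 (median over libraries) and 1.008 to 2.32 times for the other members. Fbxo32, far below Fbxo40 on FPKM, was above it in 10 of 12 libraries on CPM per kb. The level of Stub1 relative to the others, and the order of Fbxo32 against Trim55 and Fbxo40, therefore depend on the table used.

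**Figure D1:**
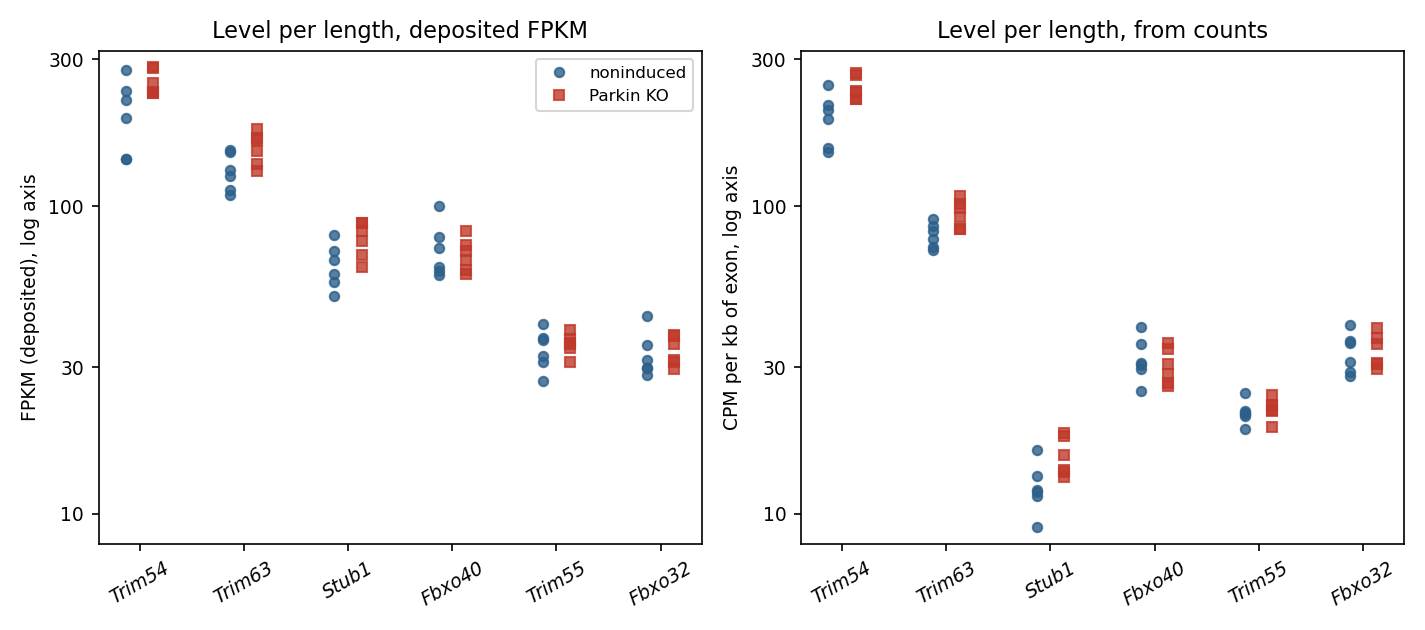
Level per length of each ligase in each of 12 libraries (log axes), as deposited FPKM on the left and as CPM per kb of GENCODE exon on the right, with blue circles for noninduced and red squares for Parkin KO. Trim54 and Trim63 were highest on both scales, while Stub1 had a median of 70.4 FPKM on the left and 13.5 CPM per kb, the lowest, on the right.

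Between the groups, no member passed edgeR's quasi-likelihood test with p-values adjusted over all 13050 genes (Benjamini-Hochberg, threshold 0.05). Trim63, Trim54 and Stub1 had higher values in Parkin KO hearts by 1.17 to 1.26-fold. Fold changes of Fbxo32, Trim55 and Fbxo40 were 0.947 to 1.03. The 95% intervals of all 6 members overlapped, and no test compared members with each other. No gene of the whole table passed the edgeR test (0%), and 1483 had an unadjusted p under 0.05 (11.4%). DESeq2 called 10 genes (0.0872% of 11465) and limma-voom called 0 (0%), and no member was among them. Trim63, Trim54 and Stub1 had unadjusted p-values under 0.05, 3 of 6 members, against 5.82% of all genes that did so in this direction, and 0 members did in the other (5.54% of all genes). Of the 6 members 5 had a positive log2 fold change (52% of all genes), and the median was 0.14 against 0.01 over all genes. The same 3 had an exact permutation p under 0.05 (6.42% of all genes in this direction). For the same 3, all 6 Parkin KO libraries lay above the noninduced mean (10.7% of all genes), and for 0 members were the groups without overlap (0.345%). The members were chosen with earlier results of these data known, so this count is a description.

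Among the MuRF genes, Trim63 ran from 239.1 to 307.1 CPM in Parkin KO (median 270.4) and from 204.5 to 257.4 CPM in noninduced libraries (median 229.6). Libraries 3, 4, 5 and 6 of the Parkin KO group lay above every noninduced library, and the groups overlapped through Parkin KO 1 and 2. Mean levels were 269.3 ± 27.6 and 229.3 ± 20.7 CPM (SD, n = 6 each). The log2 fold change of Trim63 was 0.23 ± 0.088 (SE, 95% confidence interval 0.04 to 0.42), with all 6 Parkin KO libraries above the noninduced mean (edgeR, adjusted p = 0.424). An exact two-sided permutation test over the 924 assignments of 12 libraries gave p = 0.0238 (adjusted p = 0.462 over all genes), where the smallest possible p is 0.00216.

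Trim54, whose protein binds microtubules, ran from 319.6 to 388.8 CPM in Parkin KO (median 338.2) and from 215.8 to 356.7 CPM in noninduced libraries (median 285.6). The groups overlapped only through noninduced 6, and 5 of 6 noninduced libraries lay below every Parkin KO library. The lowest were the library labelled noninduced 1, at 222.5 CPM, and noninduced 2, at 215.8 CPM. The log2 fold change of Trim54 was 0.32 ± 0.12 (SE, 95% confidence interval 0.07 to 0.57), with all 6 Parkin KO libraries above the noninduced mean (edgeR, adjusted p = 0.424). Exact permutation gave p = 0.0238 (adjusted p = 0.462). Without noninduced 1 and 2, a choice made after seeing the data, it was 0.16 ± 0.10 (edgeR, adjusted p = 0.949).

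Trim55, the MuRF gene tied to titin kinase signalling, ran from 51.1 to 64.7 CPM in Parkin KO (median 58.9) and from 50.1 to 65.8 CPM in noninduced libraries (median 56.4). The groups overlapped over nearly their whole range. Its log2 fold change was 0.039 ± 0.079 (SE, 95% confidence interval -0.13 to 0.21, edgeR, adjusted p = 0.849). The sign turned without the library labelled noninduced 1 (-0.0087). Trim55 varied least, with a coefficient of variation of 7.57% in Parkin KO and 8.9% in noninduced libraries.

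**Figure D2:**
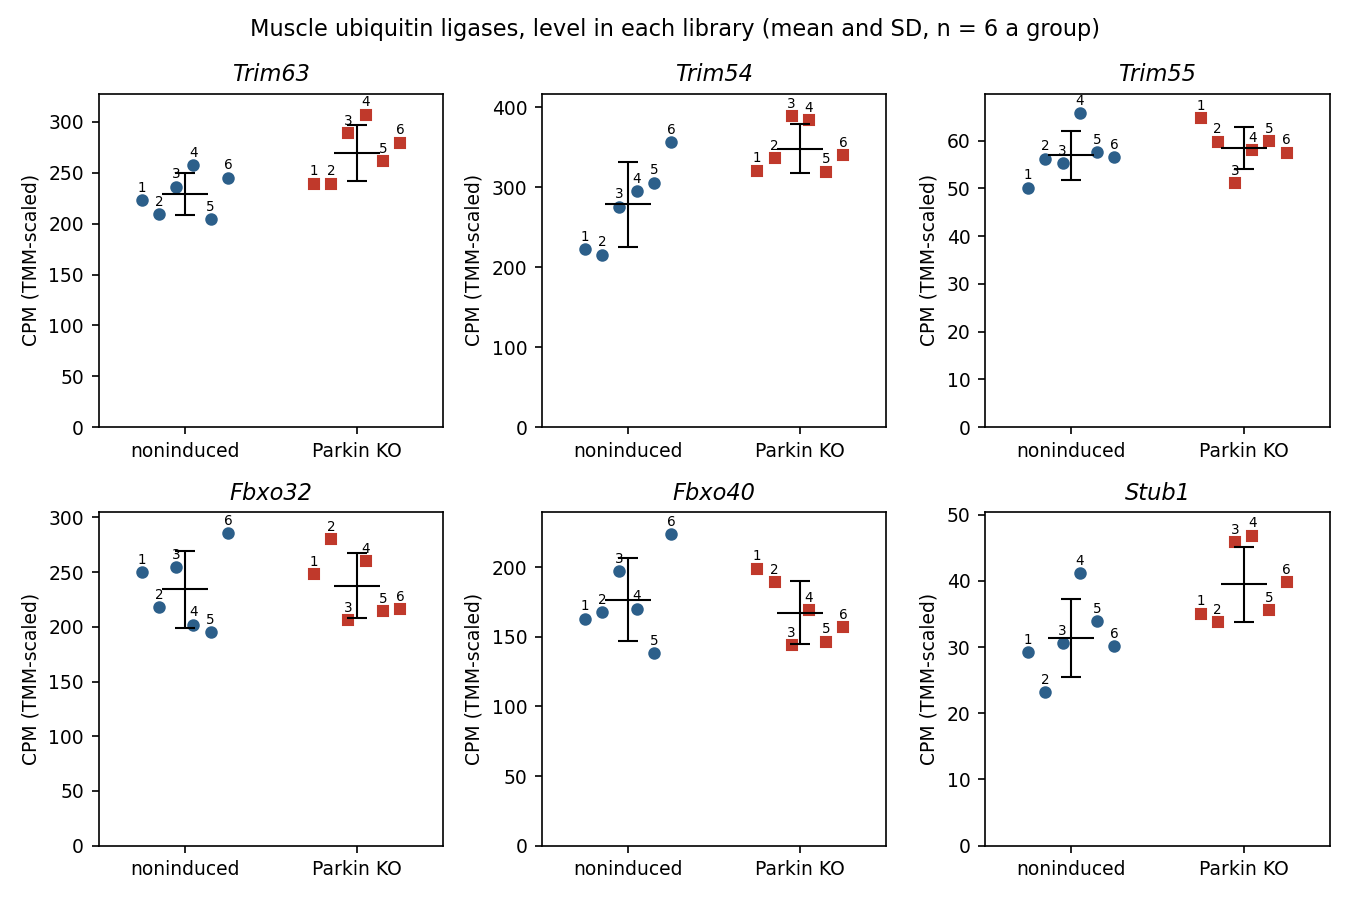
CPM of each ligase in each library, with replicate numbers, group mean and SD (black, n = 6 a group). The 5 lowest noninduced values of Trim54 lie below all Parkin KO values, while the groups of Trim55, Fbxo32 and Fbxo40 overlap.

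Of the F-box genes, Fbxo32 ran from 205.9 to 280.3 CPM in Parkin KO (median 232.3) and from 195.1 to 285.8 CPM in noninduced libraries (median 233.9). The highest library was noninduced 6 and the lowest noninduced 5, so that 1 group held both ends. The log2 fold change of Fbxo32 was 0.020 ± 0.11 (SE, 95% confidence interval -0.22 to 0.26, edgeR, adjusted p = 0.948), and exact permutation gave p = 0.812. The interval allows a fold change from 0.861 to 1.19. The sign of so small a value was not stable, and it turned without Parkin KO 2 or 4 or without noninduced 2, 4 or 5 (-0.042 to -0.018).

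Fbxo40 ran from 143.9 to 198.9 CPM in Parkin KO (median 162.9) and from 138.4 to 223.9 CPM in noninduced libraries (median 168.9). Again noninduced 6 was highest and noninduced 5 lowest of all 12. The log2 fold change of Fbxo40 was -0.078 ± 0.12 (SE, 95% confidence interval -0.33 to 0.17, edgeR, adjusted p = 0.794). Noninduced 6 also stood out in Acta1, the skeletal actin that a stressed heart re-expresses, with 9167 CPM against 236 to 3079 CPM elsewhere. In Nppa, a natriuretic peptide gene, noninduced 6 (4049 CPM) was close to noninduced 5 (3607 CPM), the library lowest in both F-box genes. The part of these genes in the F-box levels was not tested. Of 21 skeletal muscle markers, 11 were under 1 CPM in every library, among them the fast myosins Myh1 and Myh2, and Myf6 was at 0. The list summed to 3542 to 6062 CPM in Parkin KO against 3153 to 11516 CPM in noninduced hearts, most of it Acta1 and Ckm. Without noninduced 6 the log2 fold change was 0.075 for Fbxo32 and -0.0080 for Fbxo40.

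Stub1, the chaperone-linked ligase, ran from 33.8 to 46.8 CPM in Parkin KO (median 37.7) and from 23.2 to 41.2 CPM in noninduced libraries (median 30.4). Parkin KO 3 and 4 were above all noninduced libraries, 4 of 6 noninduced libraries were below all Parkin KO libraries, and noninduced 4 and 5 overlapped. The log2 fold change of Stub1 was 0.33 ± 0.13 (SE, 95% confidence interval 0.06 to 0.60), with all 6 Parkin KO libraries above the noninduced mean (edgeR, adjusted p = 0.424). Exact permutation gave p = 0.039 (adjusted p = 0.472). It was 0.21 without noninduced 1 and 2 (edgeR, adjusted p = 0.949). Jmjd8, whose exons overlap those of Stub1 on the other strand, averaged 24.9 ± 3.5 CPM in Parkin KO against 26.2 ± 3.59 CPM in noninduced hearts (SD, n = 6 each), a log2 fold change of -0.07 ± 0.11 (SE, edgeR, adjusted p = 0.805). The share of Stub1 counts that came from the overlap was not tested.

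**Figure D3:**
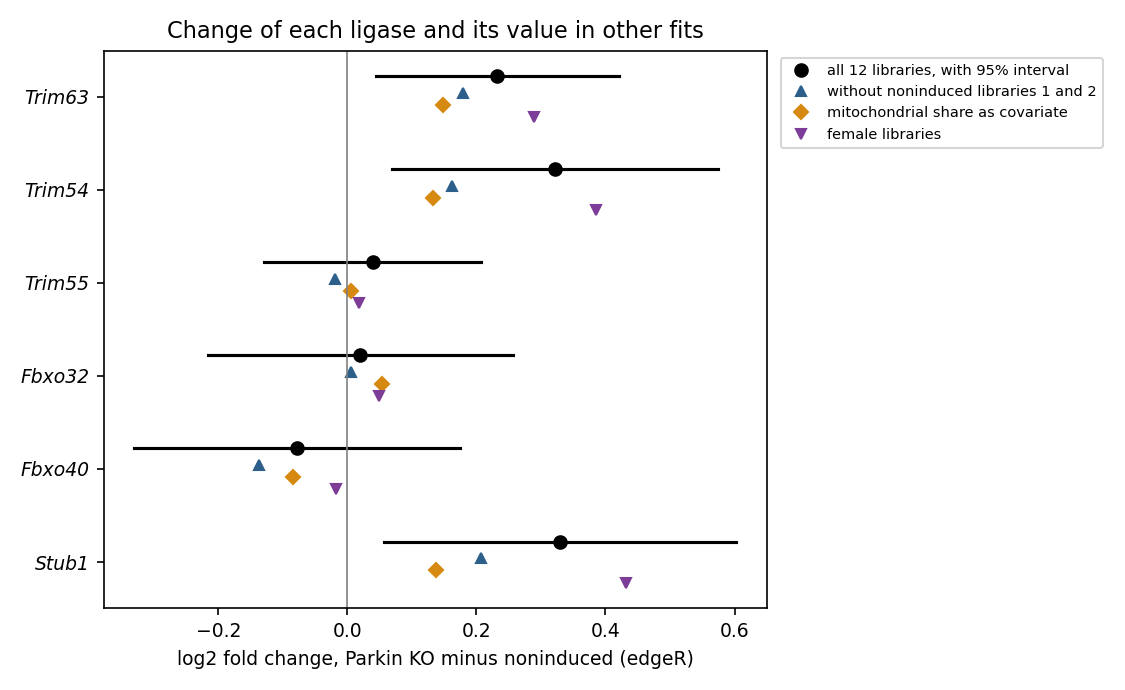
Log2 fold change of each ligase, Parkin KO minus noninduced, by edgeR with its 95% interval over all 12 libraries (black), and the value in 3 other fits (coloured). Intervals of Trim63, Trim54 and Stub1 lie above 0 before adjustment over all genes, and their values were 0.13 to 0.15 with the mitochondrial share as a covariate.

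The 95% interval reached to either side of the log2 fold change by 0.17 for Trim55, 0.19 for Trim63 and 0.24 to 0.27 for the other 4, against a median of 0.29 over all genes. The spread between libraries beyond counting error, as the square root of the edgeR dispersion, was 0.11 for Trim55, 0.123 for Trim63 and 0.147 to 0.163 for the rest. Among genes within 1.5-fold of the same mean CPM, the dispersion of Trim55 was at percentile 16.3 of 1885 genes, that of Trim63 at 26.2 of 531 and that of Stub1 at 73.5 of 2382. The 6 intervals, as fold changes, lay between 0.795 and 1.52. Intervals within 1.5-fold of no change were held by 71% of all genes and by 5 of 6 members, Stub1 being the exception.

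Across the 12 hearts the members fell into sets that varied together. Trim63 and Stub1 had r = 0.84 (Pearson, log2 CPM, permutation p = 0.00088, adjusted p = 0.0109 over 15 pairs) and rho = 0.83 (Spearman, permutation p = 0.00177, adjusted p = 0.0265). Hearts high in the ligase of the thick filament were thus also high in the chaperone ligase, led by Parkin KO 3 and 4. Without the 2 libraries farthest from the median of Trim63, r was 0.70, and it was 0.95 within Parkin KO and 0.57 within noninduced libraries. Trim54 and Stub1 had r = 0.79 (permutation p = 0.00218, adjusted p = 0.0109) and rho = 0.64 (p = 0.0287, adjusted p = 0.107), with r = 0.56 without the 2 farthest libraries, 0.93 within Parkin KO and 0.58 within noninduced. The rank correlation of that pair did not pass on CPM and did on FPKM (rho = 0.80, permutation adjusted p = 0.0212). Trim63 and Trim54 had r = 0.74 (permutation p = 0.00624, adjusted p = 0.0234) and rho = 0.77 (p = 0.00505, adjusted p = 0.0379). For these it was 0.60 without the 2 farthest libraries, 0.81 within Parkin KO and 0.48 within noninduced. The shuffles behind these p-values ran across both groups, so a difference between the groups can add to r and to the calls. On values centred by group, r was 0.73 for Trim63 with Stub1, 0.65 for Trim54 with Stub1 and 0.54 for Trim63 with Trim54.

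The F-box genes formed a second pair. Fbxo32 and Fbxo40 had r = 0.82 (permutation p = 0.00151, adjusted p = 0.0109) and rho = 0.73 (permutation p = 0.0096, adjusted p = 0.048). On FPKM its rank correlation did not pass (rho = 0.65, permutation adjusted p = 0.0986). It was 0.72 without the 2 libraries farthest from the median of Fbxo32 and 0.84 within each group. The remaining 11 pairs did not pass, with adjusted p from 0.912 to 0.945 for Pearson's r. Among these is the textbook pair of wasting genes, Trim63 and Fbxo32, with r = 0.05 (permutation p = 0.884, adjusted p = 0.945) and rho = 0.01 (p = 0.974, adjusted p = 1). It was -0.38 within Parkin KO and 0.36 within noninduced libraries. All values of a library share its scaling, so correlated members may share it too.

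**Figure D4:**
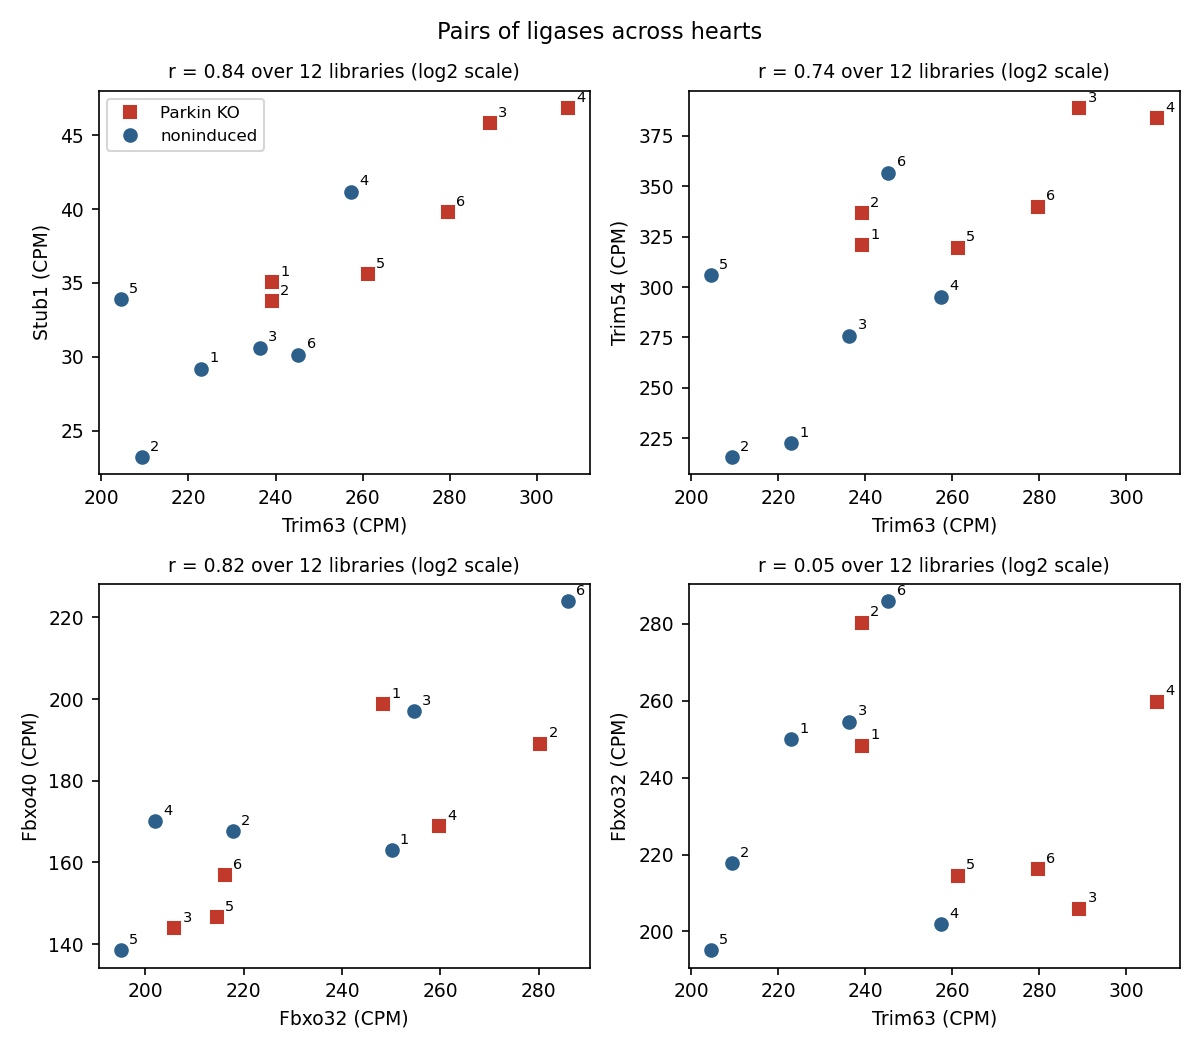
CPM of 4 pairs of ligases in each of 12 libraries, numbered by replicate, with noninduced as blue circles and Parkin KO as red squares. Trim63 goes with Stub1 (r = 0.84) and Trim54 (r = 0.74), Fbxo32 with Fbxo40 (r = 0.82), and Trim63 does not go with Fbxo32 (r = 0.05).

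Trim54, Stub1 and Trim63 also moved against the share of counts from mitochondrial DNA, which was 5.17 to 9.53% in Parkin KO and 6.65 to 16.7% in noninduced libraries. The share was highest in noninduced 2 (16.7%) and the library labelled noninduced 1 (16.0%), the libraries of lowest Trim54. Immediate-early genes, which respond within minutes to stress and handling, were highest in the libraries labelled noninduced 1 (1661 CPM in sum), 2 (1250 CPM) and 3 (975 CPM), against 361 to 847 CPM in Parkin KO and 516 to 606 CPM in the other noninduced libraries. All 19 tested had lower values in Parkin KO (10 with an unadjusted edgeR p under 0.05, against 5.54% of all genes in this direction). Their median log2 fold change was -0.69, and 0 passed in edgeR. Their part in the levels of Trim54 and Stub1 was not tested. Over 12 libraries, Trim54 had r = -0.92 (permutation p = 0.00021, adjusted p = 0.00063 over 6 genes) and rho = -0.78 (p = 0.00381, adjusted p = 0.00954). Stub1 had r = -0.87 (permutation p = 2e-05, adjusted p = 0.00012) and rho = -0.86 (p = 0.00068, adjusted p = 0.00408). Without the 2 libraries of farthest share, noninduced 1 and 2, r was -0.69 for Trim54 and -0.85 for Stub1. It was -0.92 and -0.98 within Parkin KO and -0.92 and -0.82 within noninduced libraries. Trim63 had r = -0.70 (permutation p = 0.0114, adjusted p = 0.0227) and rho = -0.78 (p = 0.00477, adjusted p = 0.00954), with -0.65 without those libraries, -0.88 within Parkin KO and -0.53 within noninduced.

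Fbxo32 (r = 0.14, rho = 0.27, permutation p = 0.662 and 0.401), Fbxo40 (r = 0.09, rho = 0.17, p = 0.789 and 0.601) and Trim55 (r = -0.35, rho = -0.24, p = 0.274 and 0.443) had no relation that passed, adjusted p being 0.411 to 0.789 for r. The r of Trim55 was 0.77 within Parkin KO and -0.70 within noninduced libraries. With the share as a covariate, a fit added after seeing the data, the log2 fold changes were 0.15 ± 0.088 for Trim63, 0.13 ± 0.077 for Trim54 and 0.14 ± 0.099 for Stub1 (SE, edgeR, adjusted p = 0.994 for each). They were 0.23, 0.32 and 0.33 without it. Without mitochondrial DNA genes in the table, the values were 0.21, 0.30 and 0.31. Over all 13050 tested genes, 620 had an unadjusted edgeR p under 0.05 with the share as a covariate and 1483 without it. When noninduced 1 and 2 were left out, 632 of 13248 tested genes did. The labels name no batch, and the share overlaps between the groups.

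**Figure D5:**
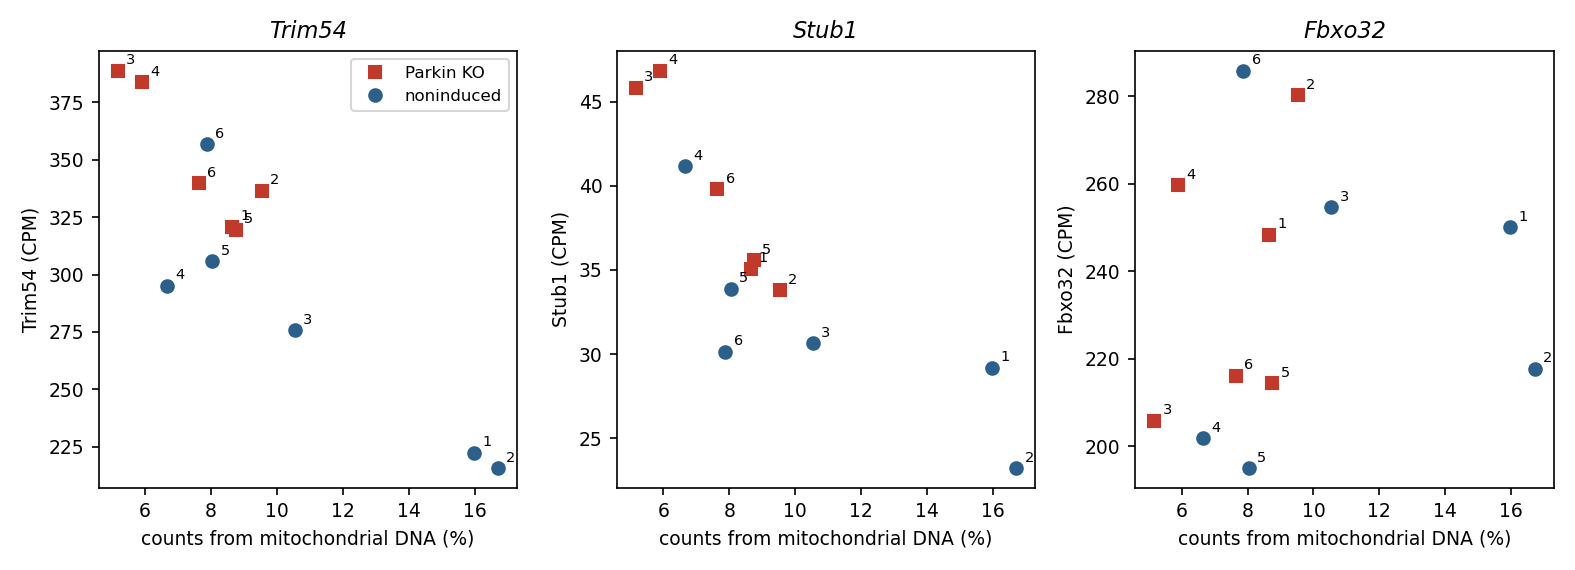
CPM of Trim54, Stub1 and Fbxo32 (vertical) against the percentage of counts from mitochondrial DNA genes (horizontal) in each library, numbered by replicate, with noninduced as blue circles and Parkin KO as red squares. Trim54 (r = -0.92) and Stub1 (r = -0.87) were lower where the share was higher, and Fbxo32 (r = 0.14) showed no such trend.

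The genes whose pattern over the 12 libraries was most like each member, by Pearson's r of log2 CPM among all tested genes outside the set (names of predicted genes left out), are given here with r. For Trim54 the nearest were Psmd4, a ubiquitin receptor of the proteasome (r = 0.95), Ier3ip1 (0.95) and Haghl (0.95). For Trim63 they were Spag7 (0.94), Pdcd2l (0.93) and H2-Ke6 (0.92), and for Stub1 Apeh, an acylpeptide hydrolase (0.98), the lysosomal ATPase Atp13a2 (0.97) and Syne3 (0.96). Fbxo40 was nearest to Gnptab, which tags lysosomal enzymes (0.95), and to Lrrc2 (0.89). Fbxo32 was nearest to Ivns1abp (0.88), the kinesin Kif21a (0.87) and nucleolin, Ncl (0.86). Trim55 was nearest to the ubiquitin ligase Rnf146 (0.90), Snhg7 (0.90) and Fam114a2 (0.90). These values were picked as the highest among all genes searched over 12 libraries and are descriptions.

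Upstream of the members, none of 30 tested genes of FoxO, insulin and growth signalling passed, with 13 higher, 17 lower and a median near 0 (log2 fold change -0.0017). The insulin receptor substrate Irs2 was at -1.36 ± 0.60 (SE). Irs2 averaged 37.1 ± 37.2 CPM in Parkin KO against 95.3 ± 81.3 CPM in noninduced hearts (SD, n = 6 each). Among 28 tested glucocorticoid, myostatin and inflammatory regulators 11 were higher and 17 lower, and none passed. Inhba, an activin subunit, was at -0.79 ± 0.24 and Stat3, the transcription factor of interleukin signalling, at -0.25 ± 0.078. Of 21 other FoxO targets of atrophy 12 were higher and 9 lower. The cell cycle inhibitor Cdkn1a was at -0.91 ± 0.26, and Pdk4, the kinase that shuts pyruvate dehydrogenase, at 0.97 ± 0.34. Adjusted p was 0.417 to 0.432 for these 5 genes (edgeR).

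Within the ubiquitin system, none of the 49 other ligases and adaptors of striated muscle passed, 31 being higher and 18 lower, the median being 0.07. Fbxo25, a cardiac F-box protein, was at 0.32 ± 0.10 (SE). Of 25 cullin-RING genes 17 were higher (median 0.11), with the COP9 signalosome subunits Cops8 at 0.25 ± 0.085 and Cops6 at 0.20 ± 0.085, and none passed. The COP9 signalosome takes the activating Nedd8 off cullins. Of 30 genes of ubiquitin and its E1 and E2 enzymes 15 were higher and 15 lower. The conjugating enzyme Ube2d1 was at -0.46 ± 0.16. Of 23 deubiquitinases 11 were higher and 12 lower, with Stambp at -0.21 ± 0.091 and Uchl3 at 0.47 ± 0.24. Adjusted p was 0.417 to 0.444 for the 6 genes named, and 0 genes of these 4 lists passed (edgeR).

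On the side of the substrates, 0 of 36 chaperones and partners of CHIP passed, with 14 higher and 22 lower and a median of -0.09. The co-chaperone Bag1 was at 0.19 ± 0.074 (SE), and the inducible chaperone Hspa1a at -0.84 ± 0.32. Hspa1a was low, at 1.07 ± 0.74 CPM in Parkin KO against 1.94 ± 0.38 CPM in noninduced hearts (SD, n = 6 each). Of 41 tested sarcomere partners and substrates of the MuRF ligases 27 were higher and 14 lower, with a median of 0.11, and 0 passed. This list shares Myh6, Tnnt2, Myl2, Myl3 and other genes with the cardiomyocyte markers, of which 12 of 14 were higher. The light chain Myl3 was at 0.33 ± 0.12, with 4768 ± 388 CPM in Parkin KO against 3784 ± 630 CPM in noninduced hearts (SD, n = 6 each). The methyltransferase Smyd1 was at 0.25 ± 0.091. Of 18 tested substrates and targets of atrogin-1, 8 were higher and 10 lower. The phosphatase Dusp1 was at -0.54 ± 0.26 and the filament gene Vim at -0.35 ± 0.17. Dusp1 is also among the immediate-early genes given above, all of which had lower values in Parkin KO where tested. Adjusted p was 0.424 to 0.439 for these 6 genes (edgeR).

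Sex differed between the groups and is given beside the values. Trim63 stood at 239.1 to 279.6 CPM in the 3 male and 239.3 to 307.1 CPM in the 3 female Parkin KO hearts, against 204.5 to 257.4 CPM in 5 female noninduced hearts. Trim54 stood at 319.6 to 339.9, 320.9 to 388.8 and 215.8 to 356.7 CPM in the same order, and Stub1 at 33.8 to 39.8, 35.1 to 46.8 and 23.2 to 41.2 CPM. Among female libraries, the log2 fold changes were 0.29 for Trim63, 0.38 for Trim54 and 0.43 for Stub1 (edgeR, adjusted p = 0.844 for each). Without the libraries labelled noninduced 1 and 3 they were 0.22, 0.23 and 0.28 (edgeR, adjusted p = 0.67, 0.72 and 0.713).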

How the data were processed

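Polyadenylated RNA of 12 mouse hearts was measured in single-end libraries without strand, and each sample's group and number come from its title. The deposited count table gives whole numbers of reads for each symbol. Per the submitters' processing notes, mouse build mm10 was used, with TopHat2 2.0.10, Bowtie2 and HTSeq among the tools. The deposited FPKM table was taken to come from Cufflinks 2.1, which the same notes name. The annotation and the counting mode are not stated there. Symbols were found for all 37 rows that carry Ensembl identifiers. Columns of control hearts, headed by an abbreviation for wild type, were assigned by number.

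Counts were fitted in R 4.3.3 with edgeR 4.0.16 (TMM, filterByExpr, two-sided quasi-likelihood F test on group alone), and p-values were adjusted by Benjamini-Hochberg over 13050 genes. Standard errors and 95% intervals were derived from the F statistic and are approximate. DESeq2 1.42.0 and limma 3.58.1 were alternatives, limma also on log2(FPKM + 1). Correlations used log2(CPM + 1) and 100000 resamples. The edgeR code was tested on simulated data. Nothing in the labels names the animals, so p-values measure the spread between these samples, which may be technical.

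The members and lists were chosen with earlier results of these data known. The named genes are the members, Park2 and Esr1, the 2 genes of smallest p in each pathway list, and the 3 genes of highest r for each member. Some genes this rule names are not reported here. Overlapping genes and neighbouring values beside a result were added to these. Alternatives comprised other normalizations, filters, units, covariates and left-out libraries.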

Additional observations from a re-analysis of the deposited data

How the results depend on the processing

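Over 28 alternatives for each member, 0 members passed the threshold in any. Trim63 (0.15 to 0.29), Trim54 (0.13 to 0.40) and Stub1 (0.14 to 0.43) kept a positive log2 fold change in all 28, and Fbxo40 kept a negative one (-0.17 to -0.0080). On leaving out 1 library, values ran from 0.18 to 0.26 for Trim63, 0.24 to 0.40 for Trim54, 0.24 to 0.41 for Stub1, -0.15 to -0.0080 for Fbxo40, -0.042 to 0.075 for Fbxo32 and -0.0087 to 0.072 for Trim55. Fbxo32 changed sign without noninduced 2 and 5 (-0.064), and Trim55 without noninduced 1 and 3 (-0.027) or, in a fit added after seeing the data, 1 and 2 (-0.019). The sign of Fbxo32 also turned without Parkin KO 2 (-0.042) or 4 (-0.018) or noninduced 2 (-0.019), 4 (-0.033) or 5 (-0.039), and that of Trim55 without noninduced 1 (-0.0087). The cause was not tested. DESeq2 called 10 genes and leaving out noninduced 1 and 3 left 1, against 0 by edgeR with all libraries. With a replicate block 0 genes passed, the log2 fold changes were 0.23 for Trim63, 0.34 for Trim54, 0.34 for Stub1, 0.02 for Fbxo32, 0.04 for Trim55 and -0.07 for Fbxo40, and it changed no call. Replicate numbers were not treated as pairs, since nothing in the labels says that they pair hearts. Same-numbered libraries correlated at -0.11 to 0.20, and 3 of 6 passed 0.1. Per length from counts, Stub1 lay above Fbxo40 in 0 libraries and Trim55 above Fbxo32 in 0. On FPKM the correlation turned positive for Trim63 with Fbxo40 (0.18) and for Fbxo32 with Trim55 (0.21), neither of which passed. The rank correlation of Fbxo32 with Fbxo40 lost its call there (0.65, permutation adjusted p = 0.0986), and that of Trim54 with Stub1 gained one (0.80, adjusted p = 0.0212). Stub1, with 245 to 802 reads a library, rests on the fewest counts of the 6.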

Other observations

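The ratio of reads between members within a library does not depend on library scaling. These ratios were chosen after the values were seen and carry no test. Reads of Trim63 per read of Fbxo32, the main genes of muscle wasting, ran from 0.853 to 1.40 in Parkin KO (median 1.20) and from 0.858 to 1.27 in noninduced libraries (median 0.945), so that the groups overlapped. Reads of Trim54 per read of Fbxo40 ran from 1.61 to 2.70 in Parkin KO (median 2.17) and from 1.29 to 2.21 in noninduced libraries (median 1.497). Reads of Trim63 per read of Stub1 ran from 6.31 to 7.34 in Parkin KO and from 6.04 to 9.01 in noninduced libraries.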
